A study of Mus musculus with 11 samples.

Results

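Broad open regions are long merged stretches of chromatin in which every library of an ATAC-seq study of the mouse dentate gyrus had a peak, though not over the full stretch. They were found by cutting each library's peak list to its highest-scoring peaks on chromosomes 1 to 19 and X, as many as the shortest list held, and merging peaks from any of the 11 lists that overlapped by 1 bp or more. Of the 59298 merged regions, 9716 were called in all 11 libraries, and 723 of these had a merged width of 2500 bp or more. These 723 are called broad regions here and made up 7.44% of the regions called everywhere and 1.22% of all regions. Width, presence in every list and rank by score therefore chose the regions and are described without a test.

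ATAC-seq reads out open chromatin with a transposase that inserts sequencing adapters into DNA not covered by nucleosomes, and peaks mark places where insertions pile up. In mammalian genomes, wide stretches of open chromatin are known at active promoters and where several enhancers lie side by side. The dentate gyrus is the hippocampal field of granule neurons, in which c-Fos, which pairs with Jun proteins to form the AP-1 transcription factor, is made rapidly upon neuronal activity.

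The study asked how neuronal activation changes chromatin accessibility. Its libraries came from microdissected dentate gyrus of individual 8-week-old C57BL/6 mice, 1 mouse per library, so replicates are animals. All mice had received an adeno-associated virus (AAV) that expresses an shRNA, directed against c-Fos (shRNA-cFos) or a control (shRNA-Ctrl). Within each, mice were in the state E1 or in the state E0. Names of the E0 lists contain the word sham, and the labels spell out neither state.

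The groups were shRNA-cFos E1 (2 libraries), shRNA-cFos E0 (3), shRNA-Ctrl E1 (3) and shRNA-Ctrl E0 (3). There was no group without virus. The promoter of the vector, the share of cells infected and the degree of c-Fos reduction are not stated in the labels. Tissue markers were not checked, since the gene annotation at hand was of another genome build than the mm9 coordinates of the lists, so regions carry positions and no gene names.

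Read depth is unknown, and the lists differed in length and in the width of their peaks. The longest list held 78349 peaks on the chromosomes used, and the lowest score kept after the cut was between 50 and 175. The median kept peak was 724 and 775 bp wide in shRNA-cFos E1, 552 to 856 bp in shRNA-cFos E0, 587 to 723 bp in shRNA-Ctrl E1 and 438 to 633 bp in shRNA-Ctrl E0. Peak width thus differed between libraries of the same group as well as between groups. The names of 2 lists, shRNA-Ctrl E1 replicates 1 and 3, lack a word that the other 9 carry and whose meaning no label gives.

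The 723 broad regions spanned 2.26 Mb, with a median width of 2888 bp (quartiles 2654 and 3386.5 bp). The other 8993 regions called in every library had a median width of 1369 bp, and the median over all regions was 665 bp. Most broad regions lay near the threshold, 404 (55.9%) being under 3000 bp wide, 244 (33.7%) between 3000 and 4000 bp, 60 (8.3%) between 4000 and 5000 bp and 15 (2.07%) at least 5000 bp. The narrowest was 2500 bp on chromosome 13 at 14130574 to 14133073, followed by 2501 bp on chromosome 8 at 60130064 to 60132564 and on chromosome 15 at 53176627 to 53179127. Just outside lay regions of 2499 bp on chromosome 12 at 8680136 to 8682634, 2498 bp on chromosome 9 at 3531205 to 3533702 and 2497 bp on chromosome 16 at 94591178 to 94593674. The plot of widths shows no gap at 2500 bp, so the broad regions are the upper end of 1 continuous distribution.

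**Figure D1:**
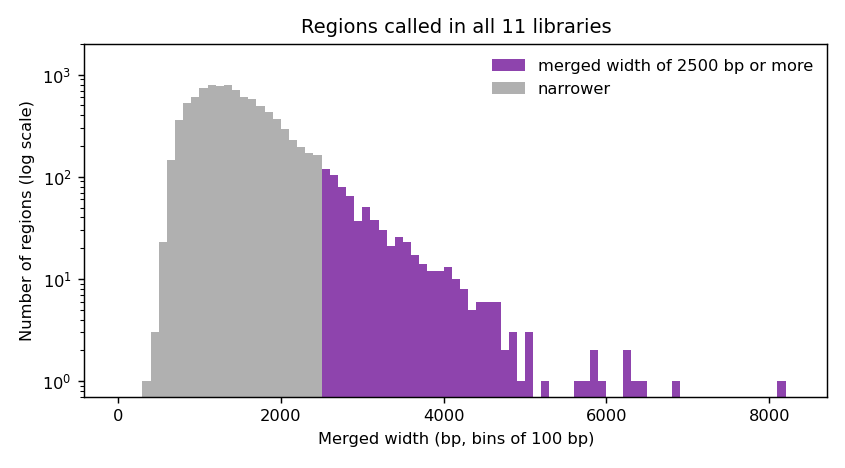
Number of regions called in all 11 libraries (vertical axis, log scale) by merged width in bins of 100 bp. The 723 regions of 2500 bp or more (purple) continue the slope of the narrower ones (grey) without a break and reach 8197 bp.

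A broad region was usually 1 long peak in a given library, but its full width was seldom reached by all libraries together. In 432 broad regions (59.8%) every library had exactly 1 peak, against 91.1% of the narrower regions called everywhere. The other 291 were split into 2 or more peaks in at least 1 library, and 96 of them in exactly 1 library. Only 1, on chromosome 6 at 4696568 to 4699643, was split in all 11, and no library had more than 3 peaks in a broad region. A single peak of 2500 bp or more was found in at least 1 library for 565 broad regions, in exactly 1 library for 259, in 6 or more libraries for 84 and in all 11 for 8. For the other 158 (21.9%) the width arose only from merging shorter peaks of different libraries.

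The stretch that all 11 libraries covered was a median of 1050 bp long in broad regions, against 525 bp in narrower ones. As a share of the merged width it was 34.7% (quartiles 22.5 and 47.8%) in broad and 41.0% (33.0 and 49.8%) in narrower regions. A median of 65.7% of a broad region was covered in 6 or more libraries and 10.1% in 1 library only, close to the 68.9% and 9.45% of narrower regions. The shared stretch lay off centre by a median of 344 bp, which is 22.8% of the distance from centre to edge, against 94 bp and 14.4% in narrower regions. Broad regions thus extended unevenly to the sides of the stretch that all libraries shared.

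Several separate shared stretches were found in 100 broad regions (13.8%) and in 3.09% of narrower ones. There were 4 such stretches in 3 broad regions, on chromosome 3 at 41366961 to 41370462, on chromosome 18 at 9210257 to 9215290 and on chromosome X at 102314913 to 102317548. The chromosome 3 region was covered over 3326 and 3446 bp in shRNA-cFos E1, 3247, 3353 and 3318 bp in shRNA-cFos E0, 3256, 3281 and 3269 bp in shRNA-Ctrl E1, and 2626, 3020 and 3499 bp in shRNA-Ctrl E0. Most of its 3502 bp was therefore covered in each library, with short breaks at differing places. In 21 broad regions (2.9%, against 0.645% of narrower ones) no base was covered by all 11 libraries, so that such a region was open everywhere only in the sense that every library had a peak somewhere in it. The lowest mean score percentile of a broad region, 31.6, belonged to 1 of these, on chromosome 3 at 135392023 to 135394820. A score percentile here ranks the best-scoring peak of a region within the kept list of a library.

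The 3 regions with the most constant extent were also the 3 with the highest mean score percentile. On chromosome 17 at 39979755 to 39986029, 94.2% of 6275 bp was covered in all libraries. Its covered length was 6019 and 6275 bp in shRNA-cFos E1, 6028, 6044 and 6114 bp in shRNA-cFos E0, 5919, 6110 and 5938 bp in shRNA-Ctrl E1, and 5913, 6197 and 5985 bp in shRNA-Ctrl E0. The longest value was 1.06 times the shortest, and each library had a single peak there. Next came chromosome 2 at 22442570 to 22446215 (3339 to 3552 bp covered, 91.6% of the width in all libraries) and chromosome 1 at 24618118 to 24623320 (4743 to 5203 bp, 91.2%). Both had the score 3100, the highest value in the deposited lists, in all 11 libraries. The chromosome 17 region had it in shRNA-Ctrl E1 replicate 3 and lay between 1048.6 and 2321.3 in the other 10. The next by the same measure, at 81.3 and 81.1%, lay on chromosome 17 at 13743051 to 13746264 and on chromosome 2 at 72816523 to 72819384. Whether such regions hold sequence that occurs many times in the genome was not analysed here.

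Several of the widest regions were put together differently in different libraries. The widest, 8197 bp on chromosome X at 166422900 to 166431096, was covered over 2367 and 3507 bp in shRNA-cFos E1, 3139, 1456 and 4446 bp in shRNA-cFos E0, 2194, 3852 and 6062 bp in shRNA-Ctrl E1, and 5991, 2298 and 2194 bp in shRNA-Ctrl E0. It was 1 peak in 7 libraries, 2 peaks in 1 and 3 peaks in 3, and the states overlapped fully. The next widest lay on chromosome 8 at 20018203 to 20025016 (6814 bp), chromosome 14 at 84842275 to 84848693 (6419 bp) and chromosome 17 at 3079038 to 3085424 (6387 bp). The chromosome 14 region was covered over 6341 and 6190 bp in shRNA-cFos E1, 1355, 6097 and 1521 bp in shRNA-cFos E0, 5553, 3938 and 6351 bp in shRNA-Ctrl E1, and 1345, 1999 and 6053 bp in shRNA-Ctrl E0. It was thus long in all 5 E1 libraries and in 1 library of each E0 group, and its E1 difference did not pass the test given further on (log2 1.06, SE 0.32, adjusted p = 0.2 by limma).

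**Figure D2:**
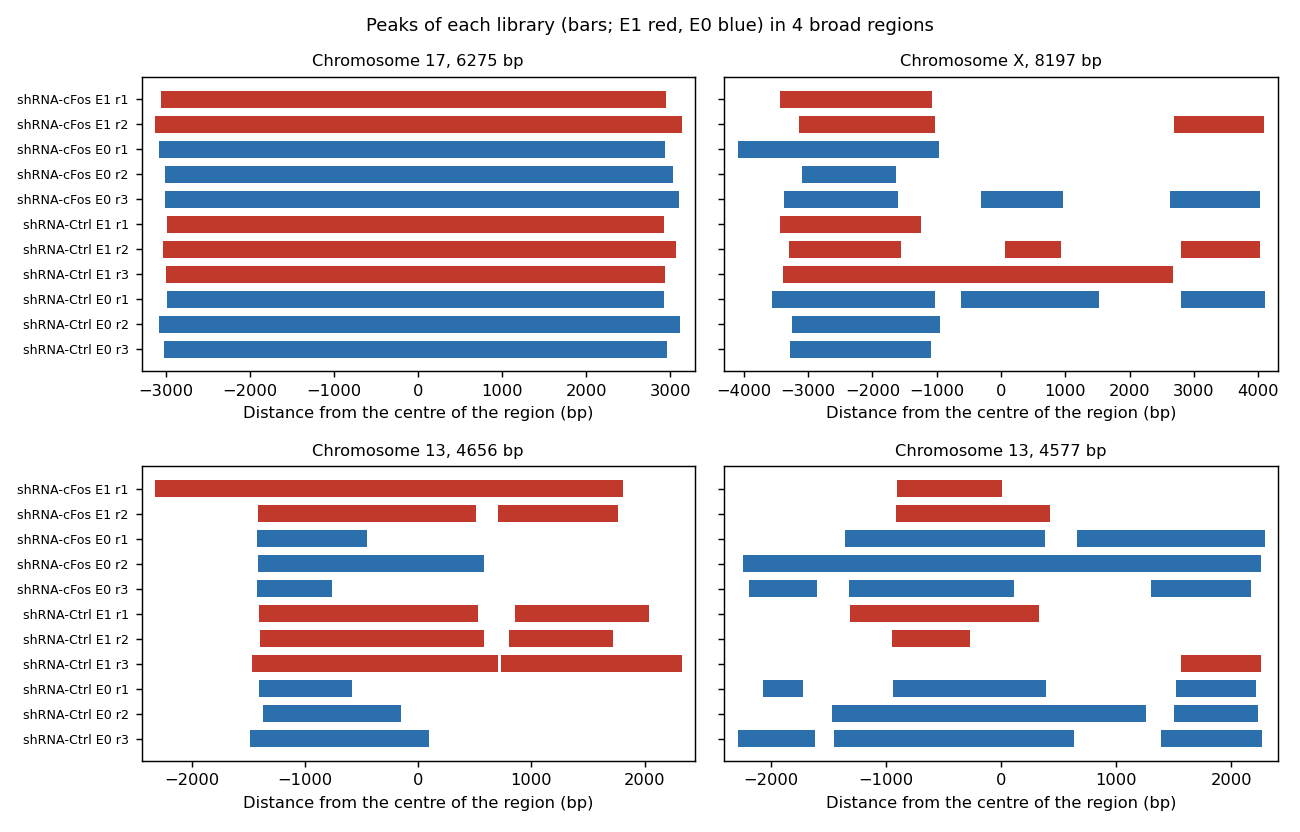
Peaks of the 11 libraries (bars, E1 red and E0 blue, 1 line per library) in 4 broad regions against the distance from the region's centre in bp. The chromosome 17 region was covered almost end to end in every library, the chromosome X region was pieced together from up to 3 peaks, and the chromosome 13 regions of 4656 and 4577 bp were covered over more length at E1 and at E0 in turn.

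Some chromosomes held more broad regions among those called everywhere than others. The share was highest on chromosome 13 (65 of 569, 11.4%), chromosome 3 (69 of 632, 10.9%) and chromosome 10 (59 of 601, 9.82%). It was lowest on chromosome 7 (15 of 422, 3.55%), chromosome X (13 of 353, 3.68%) and chromosome 19 (9 of 218, 4.13%). Most broad regions lay far from each other, with a median gap of 1.99 Mb to the next on the chromosome and 43 of 703 gaps (6.12%) under 100 kb. The nearest region called everywhere was a median of 61.8 kb away from broad and 56.3 kb from narrower regions.

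Of 701 windows of 100 kb with a broad region, 20 held more than 1 and 2 held 3. These windows lay on chromosome 13 at 43300001 to 43400000, where all 3 regions called everywhere were broad (3127 to 3305 bp), and on chromosome 3 at 96000001 to 96100000, where 3 of 7 were (2655 to 3083 bp).

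Libraries of the same group differed widely in how much of a broad region they covered. The median share of a broad region under peaks was 83.6 and 78.4% in shRNA-cFos E1, 63.4, 83.7 and 54.7% in shRNA-cFos E0, 59.1, 57.7 and 79.3% in shRNA-Ctrl E1, and 51.2, 54.7 and 66.9% in shRNA-Ctrl E0. As group means this was 81.0 ± 3.68% (SD, n = 2), 67.3 ± 14.9% (n = 3), 65.4 ± 12.1% (n = 3) and 57.6 ± 8.24% (n = 3) in the same order, and the states overlapped in both shRNA groups. Narrower regions showed the same order of libraries at the extremes, with 87.4% in shRNA-cFos E0 replicate 2 and 53.9% in shRNA-Ctrl E0 replicate 1. These 2 libraries also had the widest and the narrowest median peak, 856 and 438 bp. The part of peak width in general in these values was not tested.

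Breaks moved the other way. The share of broad regions with 2 or more peaks was 4.7 and 8.02% in shRNA-cFos E1, 15.9, 3.32 and 17.0% in shRNA-cFos E0, 7.88, 12.6 and 6.36% in shRNA-Ctrl E1, and 23.9, 13.6 and 12.2% in shRNA-Ctrl E0. A single peak of 2500 bp or more was seen in 41.6 and 33.1%, in 12.0, 41.2 and 6.22%, in 13.6, 11.3 and 32.0%, and in 3.6, 7.33 and 16.3% of broad regions in the same order. Libraries with long unbroken peaks thus occurred in 3 of the 4 groups, and shRNA-cFos E0 replicate 2 stood apart from the other libraries of its group in each of these measures. The best-scoring peaks of broad regions ranked high in every list. Their median score percentile was between 83.3 and 89.1, against 76.7 to 79.8 in narrower regions. Broad regions more often held several peaks to take the best from, and the part of this in their rank was not tested. They held 2.97 to 3.61% of kept peaks and 7.08 to 8.22% of the kept length.

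**Figure D3:**
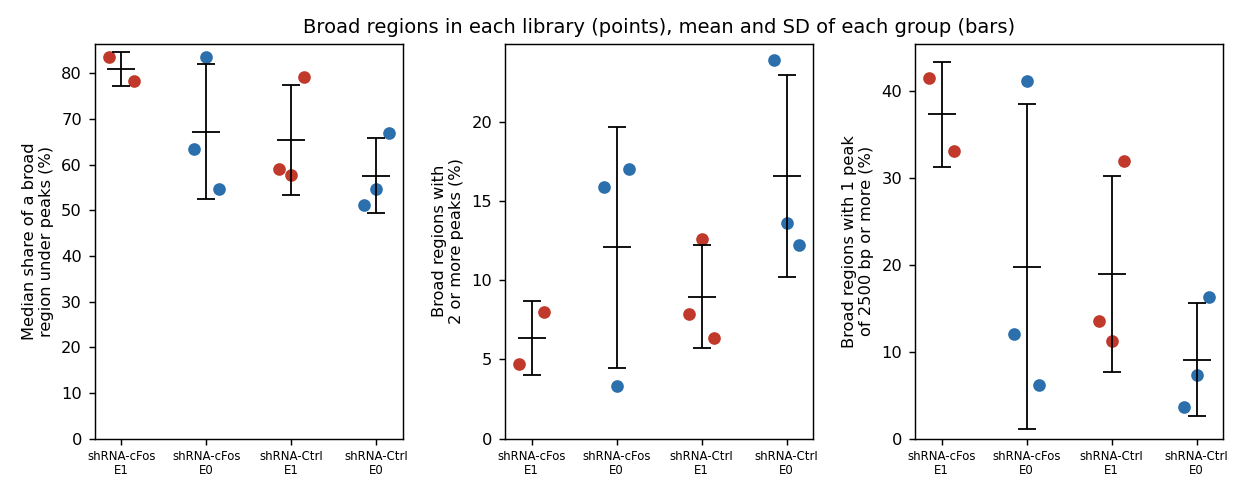
For each library (points) with the mean and SD of its group (bars), the median share of a broad region under peaks, the share of broad regions with 2 or more peaks, and the share with 1 peak of 2500 bp or more, all in %. The libraries shRNA-cFos E0 replicate 2 and shRNA-Ctrl E1 replicate 3 lie near the shRNA-cFos E1 libraries in all 3 panels, and E1 and E0 overlap within each shRNA group in every panel.

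To compare states region by region, the covered length, which is the number of base pairs of a region under a library's peaks, was taken on the log2 scale and centred on each library's median over the 9716 regions called everywhere. This takes out only a shift shared by all regions of a library, so a log2 difference is relative to the typical region. Effects of peak width that differ between regions stay in the values. The near-constant chromosome 1 region at 24618118 had mean lengths of 4914 and 4942 bp in shRNA-cFos E1 and E0, yet a log2 difference of -0.19. The merged width is a union over libraries, so it can grow where the extent of a region varied between libraries. The part of this in the spread of broad regions was not tested. The ratio of the longest to the shortest covered length had a median of 2.38 in broad and 2.08 in narrower regions, and the within-group SD of log2 covered length a median of 0.298 and 0.245. A broad region can also owe its 2500 bp to 1 state. The E1 lists alone reached 2500 bp in 554 broad regions and the E0 lists alone in 465, while 343 reached it in each state, 211 only in E1, 122 only in E0 and 47 in neither alone.

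In 20 broad regions the open stretch was longer at E1 than at E0 over both shRNA groups, and in 2 it was shorter (limma moderated test, Benjamini-Hochberg adjusted p under 0.05 over all 9716 regions). These 22 regions were 3.04% of the broad regions, against 0.576% of all regions tested, the longer ones being 2.77% against 0.463% and the shorter ones 0.277% against 0.113%. Of the 20 longer ones, 14 did not reach 2500 bp in the E0 lists alone and so met the width rule through the E1 lists in which they are long. Of the 2 shorter ones, the region on chromosome 6 described further on met it through the E0 lists alone. Covered length is thus tied to the rule, in this and in each later comparison, and nothing is read from any excess over all regions. In a fit of the 20628 regions called in at least 6 libraries, 16 broad regions (2.21%) were called, against 4.8% of all. Regions in that fit may lack a peak in some libraries, while broad regions by rule have 1 in each. These 2 shares are therefore of unlike sets. Among the 343 regions that reached 2500 bp in each state, 6 were longer and 1 was shorter (2.04%). In bulk tissue, a longer peak in each cell and a larger share of cells with an open flank cannot be told apart.

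The count of 22 fell to 12 (1.66%, against 0.278% of all regions) without shRNA-cFos E0 replicate 2. It was 14 (1.94%) without shRNA-cFos E0 replicate 3 or without shRNA-Ctrl E1 replicate 3, against 0.226% and 0.381% of all. It fell most without either shRNA-cFos E1 library, which left 1 library in that group. The stratified exact permutation test called none (smallest adjusted p = 0.313), since its smallest p over 200 label arrangements is 0.005, which 17 broad regions and 155 of all regions reached. An unadjusted p under 0.05 was found in 133 broad regions (18.4%, against 11% of all) by limma and in 107 (14.8%, against 10.1%) by the permutation test. By limma these were 101 longer (14%, against 6.10% of all) and 32 shorter ones (4.43%, against 4.87%). Every E1 library lay above every E0 library in 19 broad regions (2.63%, against 1.04% of all), and below in 2 (0.277%, against 0.607%). The median log2 difference of broad regions was 0.19 without centring, against 0.15 over all regions. With centring, which sets values relative to each library's median region, it was 0.02 against -0.02.

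The 20 longer regions had a median covered length of 3216 and 2691.5 bp in shRNA-cFos E1, 972, 1372 and 852 bp in shRNA-cFos E0, 1541.5, 1969 and 2311 bp in shRNA-Ctrl E1, and 829, 864 and 927 bp in shRNA-Ctrl E0. These medians and the spans that follow describe regions picked by this contrast, 14 of them wide only with the E1 lists, and carry no test. All 20 had a higher mean at E1 in both shRNA groups, with log2 differences over both of 0.63 to 1.58. In 18 the E1 peaks reached beyond the E0 peaks on both sides, yet by 500 bp or more on both sides in 5, on 1 side in 13 and on neither in 2. The added length thus lay mainly on 1 flank. In 11 of the 20 every library had exactly 1 peak, and whether neighbouring peaks were joined by the caller there was not tested. The mean score percentile did not follow the length. It was higher at E1 in 8 of the 20, with a median of 65.8 at E1 and 69.7 at E0. Percentiles were not centred. Over all broad regions, library medians averaged 85.7 at E1 and 88.6 at E0 in shRNA-Ctrl, and 85.8 and 86.2 in shRNA-cFos. A lower rank at E1 was thus not particular to the 20.

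Among the longer regions with the smallest p, the region on chromosome 13 at 51940797 to 51945452 had a second peak in most E1 libraries. Its covered length was 4141 and 2984 bp in shRNA-cFos E1 and 3121, 2893 and 3776 bp in shRNA-Ctrl E1, against 970, 1989 and 656 bp in shRNA-cFos E0 and 817, 1224 and 1575 bp in shRNA-Ctrl E0. All 5 E1 libraries lay above all 6 E0 libraries (log2 difference 1.42, SE 0.18, 2.68-fold, limma adjusted p = 0.00327). The E1 peaks spanned 4656 bp and the E0 peaks 2060 bp, the E1 span reaching 845 bp further to the left and 1751 bp to the right. Each E0 library had 1 peak there, 4 of the E1 libraries had 2 and the fifth had 1 long peak.

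On chromosome 9 at 21740741 to 21743367 the covered length was 2569 and 2476 bp in shRNA-cFos E1 and 1490, 2211 and 2011 bp in shRNA-Ctrl E1, against 727, 1690 and 638 bp in shRNA-cFos E0 and 607, 465 and 600 bp in shRNA-Ctrl E0. In base pairs the longest E0 value passed the shortest E1 value, while on the centred scale the states did not overlap (log2 1.44, SE 0.19, 2.71-fold, limma adjusted p = 0.00327). On chromosome 1 at 93353764 to 93356916 it was 3153 and 2437 bp in shRNA-cFos E1 and 1320, 2346 and 2452 bp in shRNA-Ctrl E1, against 799, 1089 and 754 bp in shRNA-cFos E0 and 897, 779 and 924 bp in shRNA-Ctrl E0 (log2 1.26, SE 0.16, 2.39-fold, limma adjusted p = 0.00327). No E0 library reached an E1 library there, and the span was 3153 bp at E1 and 1173 bp at E0, with 1611 bp of the extra length on the left and 369 bp on the right.

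The region on chromosome 14 at 80167019 to 80172622 was 1 peak in every library. That peak covered 5540 and 5473 bp in shRNA-cFos E1 and 4614, 4031 and 5339 bp in shRNA-Ctrl E1, against 2217, 4508 and 2625 bp in shRNA-cFos E0 and 905, 1569 and 1874 bp in shRNA-Ctrl E0. The long E0 value came from shRNA-cFos E0 replicate 2, the library with the widest peaks, and the log2 difference was 1.15 (SE 0.16, 2.21-fold, limma adjusted p = 0.00596). Its mean score percentile was lower at E1 (59.3) than at E0 (75.2). The chromosome 14, chromosome 9 and chromosome 13 regions named so far kept their limma call in all 16 alternative fits run for them, though not in the permutation test, with limma adjusted p of at most 0.0417, 0.0385 and 0.0385. They were the 3 of the 22 to do so, while 11 lost it in 1 to 6 fits and 8 in 9 to 13 fits.

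In 8 of the 20 longer regions the mean score percentile was higher at E1, the first region below being 1 of them. On chromosome 3 at 30991815 to 30995240 the single peak covered 3426 and 3154 bp in shRNA-cFos E1 and 3095, 3179 and 3231 bp in shRNA-Ctrl E1, against 1426, 1915 and 1012 bp in shRNA-cFos E0 and 1825, 1538 and 1654 bp in shRNA-Ctrl E0. All E1 libraries lay close together and above all E0 libraries (log2 0.91, SE 0.14, limma adjusted p = 0.00868), and the mean score percentile was 94.5 at E1 and 92.6 at E0. This region and the next 2 were singled out after their values were seen. On chromosome 4 at 68611144 to 68616991, 1 of the 10 widest, the covered length was 5848 and 4013 bp in shRNA-cFos E1 and 3948, 3784 and 4022 bp in shRNA-Ctrl E1, against 2125, 2137 and 1264 bp in shRNA-cFos E0 and 2045, 2161 and 1602 bp in shRNA-Ctrl E0 (log2 1.06, SE 0.17, limma adjusted p = 0.0123). The states did not overlap there. The largest log2 difference of the 20, 1.58 (SE 0.27, limma adjusted p = 0.0183), lay on chromosome 18 at 74121034 to 74124603, where shRNA-Ctrl E1 replicate 1, at 717 bp, stayed within the E0 range of 455 to 1055 bp. The call was lost in 3 of 17 alternative fits on chromosome 3 (adjusted p up to 0.079), 2 of 17 on chromosome 4 (up to 0.102) and 4 of 16 on chromosome 18 (up to 0.102). Each of the 3 lost it without shRNA-cFos E1 replicate 1.

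In the window on chromosome 13 with 3 broad regions, 2 of the 3 were longer at E1. The region at 43324784 to 43327910 was covered over 2891 and 2185 bp in shRNA-cFos E1 and 1477, 1507 and 1509 bp in shRNA-Ctrl E1, against 763, 1581 and 839 bp in shRNA-cFos E0 and 692, 814 and 822 bp in shRNA-Ctrl E0 (log2 0.97, SE 0.15, limma adjusted p = 0.00868). The region at 43356603 to 43359907 was covered over 1920 and 3201 bp in shRNA-cFos E1 and 856, 1913 and 1603 bp in shRNA-Ctrl E1, against 670, 909 and 813 bp in shRNA-cFos E0 and 646, 711 and 766 bp in shRNA-Ctrl E0 (log2 1.14, SE 0.21, limma adjusted p = 0.0244). The first lost its call in 1 of 16 alternative fits (adjusted p = 0.083) and the second in 5 of 16 (up to 0.16). The last of the window, at 43397573 to 43400823, had a log2 difference of -0.03 (limma adjusted p = 0.978), with lengths between 665 and 2777 bp at E1 and between 837 and 2743 bp at E0. Neighbouring broad regions thus had unlike values within 100 kb, although the difference between them was not tested.

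The 2 broad regions that were shorter at E1 were both wide, and no single E1 library covered more than 1641 bp of either. On chromosome 13 at 28507856 to 28512432 the covered length was 909 and 1333 bp in shRNA-cFos E1 and 1641, 682 and 699 bp in shRNA-Ctrl E1, against 3362, 4493 and 2893 bp in shRNA-cFos E0 and 2372, 3452 and 3630 bp in shRNA-Ctrl E0. All E1 libraries lay below all E0 libraries (log2 -1.88, SE 0.23, limma adjusted p = 0.00327). With the lists as deposited the difference was -1.23 and the call was lost (adjusted p = 0.063). Each E1 library had 1 peak there, against 1 to 3 peaks at E0, and the peak of shRNA-Ctrl E1 replicate 3 lay apart from those of the other E1 libraries, as the map of peaks shows. No base of this region was covered in all 11 libraries, so the lengths compared need not lie over the same part of it.

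On chromosome 6 at 13785373 to 13790241 the covered length was 1384 and 1305 bp in shRNA-cFos E1 and 809, 803 and 739 bp in shRNA-Ctrl E1, against 3494, 3310 and 1276 bp in shRNA-cFos E0 and 1560, 3251 and 3615 bp in shRNA-Ctrl E0 (log2 -1.48, SE 0.23, limma adjusted p = 0.00868). With the lists as deposited it was -0.94 and not called (adjusted p = 0.163), and 5 of 16 alternative fits lost the call. In base pairs shRNA-cFos E0 replicate 3 fell among the E1 libraries. The E1 peaks spanned 1414 bp of the 4869 bp that the E0 peaks spanned. The next by p, on chromosome 2 at 11422232 to 11425288, did not pass (log2 -0.57, SE 0.15, limma adjusted p = 0.103), although it was 1 peak in each of the 5 E1 libraries and 2 peaks in each of the 6 E0 libraries.

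**Figure D4:**
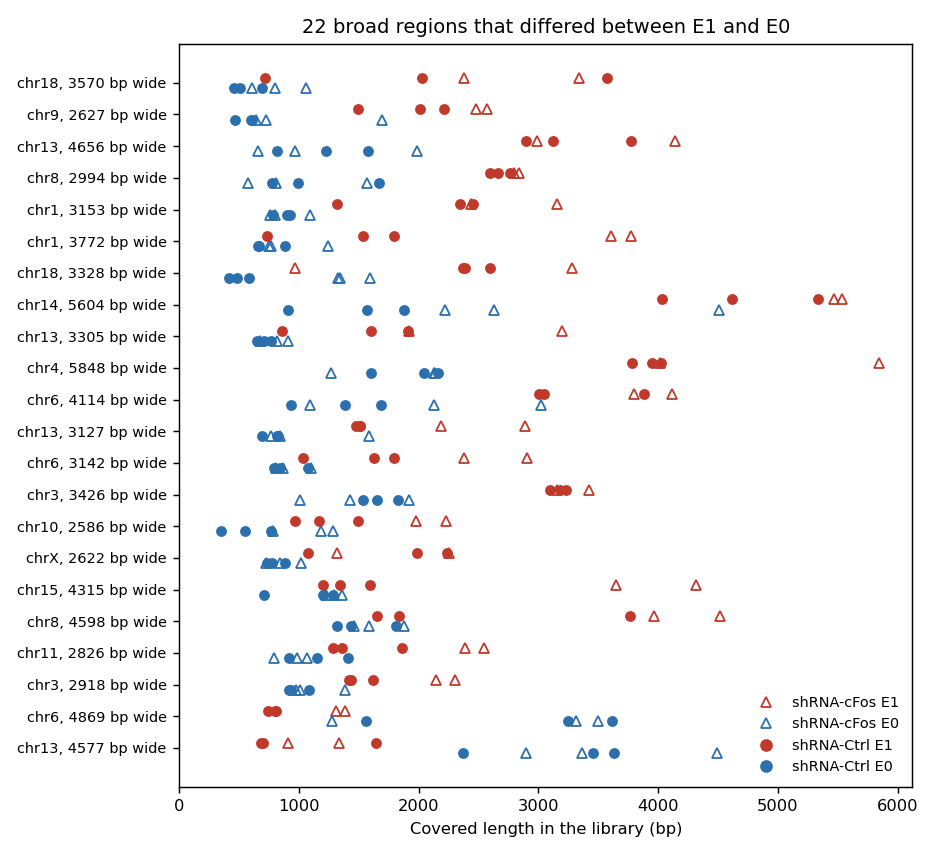
Covered length in bp of the 22 broad regions with an adjusted p under 0.05 for E1 against E0, 1 point per library (triangles shRNA-cFos, circles shRNA-Ctrl, E1 red, E0 blue), ordered by log2 difference. E1 points lie to the right of most E0 points in the upper 20 regions and to the left in the lowest 2.

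Within shRNA-Ctrl alone, 4 broad regions were longer at E1 and 2 were shorter, all 6 among those given above. They were 0.83% of the broad regions, against 0.247% of all regions tested, the longer ones being 0.553% against 0.216% and the shorter ones 0.277% against 0.0309%. An unadjusted p under 0.05 was found in 104 (14.4%, against 9.26% of all), of which 64 were longer (8.85%, against 5.36%) and 40 shorter (5.53%, against 3.90%). The largest difference lay on chromosome 18 at 62482953 to 62486280, which was covered over 2372, 2592 and 2384 bp in shRNA-Ctrl E1, against 411, 479 and 584 bp in shRNA-Ctrl E0 (log2 2.18, SE 0.30, limma adjusted p = 0.0156). No base of this region was covered in all 11 libraries, and its mean score percentile was 45.6. The lengths compared there need not lie over the same part of the region. The other 3 longer ones were the regions on chromosome 14 (log2 1.59, adjusted p = 0.0156), chromosome 9 (1.61, 0.018) and chromosome 13 at 51940797 (1.32, 0.035). The 2 shorter ones had log2 differences of -1.90 and -1.91 (adjusted p = 0.0183 each). With the lists as deposited the 2 shorter ones were at -0.94 on chromosome 13 (adjusted p = 0.425) and -1.03 on chromosome 6 (0.364). The longer chromosome 13 region kept its call within shRNA-Ctrl in 1 of 12 alternative fits (adjusted p up to 0.262). Without centring none of the 6 passed, and none passed without shRNA-Ctrl E1 replicate 2 or without shRNA-Ctrl E0 replicate 3.

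Within shRNA-cFos alone no broad region passed the limma test, and neither did any of the 9716 regions (0%, smallest adjusted p = 0.0658). An unadjusted p under 0.05 was found in 108 broad regions (14.9%, against 7.02% of all), of which 90 were longer (12.4%, against 3.95%) and 18 shorter (2.49%, against 3.07%). A fit of the shRNA-cFos libraries alone called 9 (1.24%, against 0.144% of all), of which 8 were longer. Covered length is tied to the width rule here too, and nothing is read from these excesses. The smallest p among broad regions belonged to chromosome 1 at 37733577 to 37737348, a single peak of 3772 and 3605 bp in shRNA-cFos E1, against 763, 1238 and 753 bp in shRNA-cFos E0 (log2 1.86, SE 0.29, limma adjusted p = 0.0658). In shRNA-Ctrl the same region was covered over 732, 1797 and 1535 bp at E1, against 660, 669 and 886 bp at E0 (log2 0.64, SE 0.26, limma adjusted p = 0.487).

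The E1 differences of the 2 shRNA groups, which share no library, had the same sign in 437 of 723 broad regions (60.4%) and in 58.2% of the 8993 narrower ones. Across the 723 sites their Pearson correlation was 0.43 and the Spearman correlation 0.34, against 0.25 and 0.22 across narrower regions. These describe sites read in the same 11 libraries, which are not independent replicates. Covered length is tied to the width rule, so nothing is read from the higher values in broad regions.

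**Figure D5:**
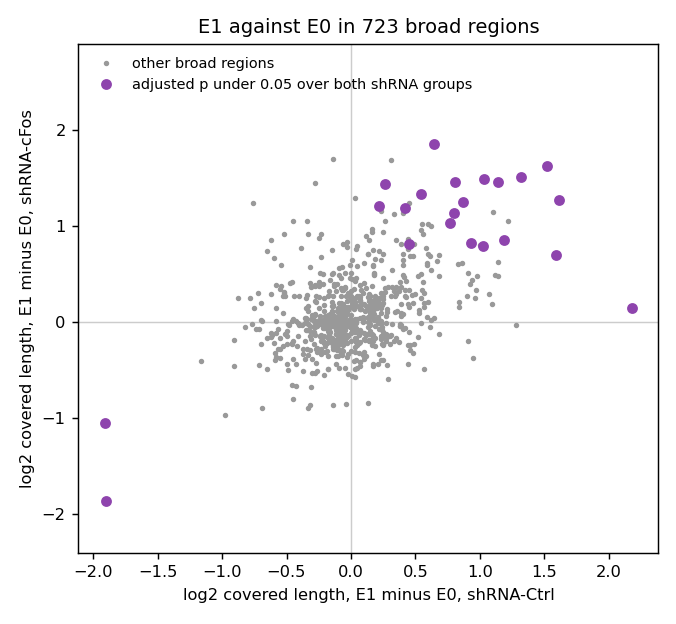
Log2 difference in covered length between E1 and E0 in shRNA-Ctrl (horizontal) and in shRNA-cFos (vertical) for the 723 broad regions (points). The 22 regions with an adjusted p under 0.05 over both shRNA groups (purple) lie in the upper right, 20 of them, and in the lower left, 2 of them.

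No broad region had an E1 difference that itself differed between the shRNA groups (limma, smallest adjusted p = 0.867). No region of the 9716 passed (0%), and an unadjusted p under 0.05 was found in 58 broad regions (8.02%, against 4.76% of all), with a positive difference in 46 (6.36%, against 2.42%) and a negative one in 12 (1.66%, against 2.34%). Nothing is read from these shares, since covered length is tied to the width rule. The difference of effects had a median SE of 0.34 on the log2 scale, so only large differences could have passed. Extreme values were -2.03 (SE 0.46) for the chromosome 18 region at 62482953, which was covered over 3279 and 969 bp in shRNA-cFos E1 and 1344, 1593 and 1328 bp in shRNA-cFos E0, and 2.0 (SE 0.45) for chromosome 4 at 57311913 to 57315426. The smallest p belonged to chromosome 10 at 80391153 to 80394444 (1.73, SE 0.37), covered over 2185 and 3023 bp in shRNA-cFos E1 and between 519 and 1359 bp in the other 9 libraries.

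The c-Fos shRNA was compared with the control shRNA within each state. In both states covered length is tied to the width rule, so nothing is read from a share above that of all regions. At E1 no broad region and no region of the 9716 passed (0%, limma, smallest adjusted p = 0.218), and an unadjusted p under 0.05 was found in 64 broad regions (8.85%, against 5.06% of all), of which 53 were longer in shRNA-cFos (7.33%, against 3.01%) and 11 shorter (1.52%, against 2.06%). The first by p lay on chromosome 11 at 75273679 to 75276960, covered over 3229 and 2493 bp in shRNA-cFos E1, against 805, 869 and 1066 bp in shRNA-Ctrl E1 (log2 1.40, SE 0.23, limma adjusted p = 0.218). The groups did not overlap there, as was also so on chromosome 15 at 12665982 to 12670296, with 3644 and 4315 bp in shRNA-cFos E1, against 1593, 1196 and 1343 bp in shRNA-Ctrl E1 (log2 1.29, SE 0.24, limma adjusted p = 0.268). In the other direction chromosome 2 at 116945128 to 116948175 had 1950 and 1885 bp in shRNA-cFos E1, against 2410, 2825 and 2507 bp in shRNA-Ctrl E1 (log2 -0.67, SE 0.21, limma adjusted p = 0.755).

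At E0 no region passed either (0%, limma, smallest adjusted p = 0.392), and an unadjusted p under 0.05 was found in 52 broad regions (7.19%, against 5.76% of all), of which 29 were longer (4.01%, against 3.11%) and 23 shorter (3.18%, against 2.66%). The first by p lay on chromosome 14 at 60996241 to 60998788, covered over 1777, 2548 and 1715 bp in shRNA-cFos E0, against 442, 799 and 1208 bp in shRNA-Ctrl E0 (log2 1.18, SE 0.24, limma adjusted p = 0.392). In the other direction chromosome 16 at 52452209 to 52454749 had 978, 1384 and 937 bp in shRNA-cFos E0, against 1215, 1588 and 2310 bp in shRNA-Ctrl E0 (log2 -0.82, SE 0.19, limma adjusted p = 0.392). The median log2 difference of broad regions was -0.06, against -0.02 over all regions, with a median SE of 0.22. A p that misses the threshold at these errors does not show that the shRNA groups were alike.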

How the data were processed

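The deposited data are 11 peak lists, 1 per library, with a chromosome, start, end, peak name and score. Reads were aligned with Bowtie2 to mm9, per the submitters' processing notes, and the peak names in the deposited lists carry the name of the caller MACS. For read filters and caller settings, the sources used here give no details. As deposited, the score runs from 50 to 3100 on a scale no label states, so it was used for ranks alone, and read depth is unknown.

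Lists were cut to the length of the shortest, and peaks were merged. Log2 covered length of the 9716 regions called in all 11 libraries was centred per library and fitted with limma 3.58.1 (R 4.3.3), with 4 group means and Benjamini-Hochberg adjustment over all 9716. Merging and fit were tested on simulated data. An exact permutation test within shRNA groups gave a second p. Lists were read and merged and score percentiles computed in Python 3.11.15 (pandas 2.3.3, numpy 2.4.6). Spearman correlations came from scipy 1.17.1 and plots from matplotlib 3.10.9. The regions and the comparisons were chosen with earlier results of these data known. By rule the text names the 10 widest regions, the 3 on either side of 2500 bp, the extremes of score percentile and of shared extent, the densest windows, and per comparison the 5 longer and 5 shorter with the smallest p, of which some are given. Fixed gene lists and cell type markers were not used, and no sequence is printed, because the annotation and sequences at hand are of build GRCm38. Alternatives were the lists as deposited, the 15000 highest scores, no centring, regions called in at least 6 libraries with 100 bp added, other widths and merging, the replicate number as a block, only the groups compared, and each library left out in turn.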

Additional observations from a re-analysis of the deposited data

How the results depend on the processing

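For E1 against E0 over both shRNA groups (22 broad regions called), the count was 5 with the 15000 highest scores, 0 by the exact permutation test, 7 among regions reaching 2500 bp in each state, 14 without the 2 lists lacking the added word, and 7 to 20 with 1 library left out. The subset by state and the word were alternatives chosen after seeing the data. The lists as deposited gave 21 (2.9%, against 0.545%), all longer, and no centring 18 (2.49%, against 0.329%). Regions in at least 6 libraries gave 16 (2.21%, against 4.8% of all, which there include regions without a peak in some libraries). The cause of that difference was not tested. Nothing is read from these shares, since covered length is tied to the width rule. In shRNA-Ctrl (6, 0.83%, against 0.247% of all) it was 7 (0.968%, against 0.257%), all longer, as deposited. It was 3 (0.516%, against 0.179%) with 15000 scores and 0 without centring. With 1 library left out it was 0 to 8 (0 to 1.11%, against 0 to 0.278%). Without those 2 lists it fell too, with 1 shRNA-Ctrl E1 library left. In shRNA-cFos (0) it was 2 (0.277%, against 0.0206%) as deposited and 2 (0.344%, against 0.0298%) with 15000 scores. It was 9 (1.24%, against 0.144%) in a fit of its own groups. With 1 shRNA-cFos E0 library left out it was 0 to 1 (0 to 0.138%, against 0 to 0.0103%). Between shRNA groups at E0 (0) it was 2 (0.277%, against 0.0206%) as deposited. The difference of effects (0) stayed at 0 with 1 library of a group of 3 left out. Where leaving out a library left 1 in an arm, that library was assumed to vary like the other groups. The cause of these changes was not tested. No called region changed direction in any alternative run.

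The number of broad regions (723) was 1780 from 2000 bp, 319 from 3000 bp, 201 where each library had to cover 50%, 343 where each state had to reach 2500 bp, and 619 to 744 with 1 library left out.

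Replicate numbers showed no clear pairing of libraries. Deviations of same-numbered libraries correlated at -0.11 to 0.15 over 15 pairs and other pairs at -0.22 to 0.12. Of the 11 libraries, 5 correlated best with their own number. Deviations within a group of 2 or 3 libraries are tied to each other, so these values cannot exclude a pairing. The replicate block gave 23 calls over both shRNA groups (3.18%, against 0.515% of all regions). It gave 5 in shRNA-Ctrl (0.692%, against 0.134%) and 0 in the other comparisons. Unknown depth limits all lengths, since deeper libraries can give wider peaks.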
